A study of Mus musculus with 4 samples.

Results

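Abhd6, Abhd12 and Faah encode 3 hydrolases of endocannabinoids, the lipid messengers that neurons release backwards across synapses. They were taken by name as the serine hydrolases that act beside monoacylglycerol lipase (MAGL, encoded by Mgll), and they are 3 of the 20211 gene symbols listed in all 4 libraries. The libraries hold RNA from nuclei of the mouse hippocampus, 1 library for each genotype the labels name: wild type, MAGL knockout in the whole animal (total knockout), MAGL knockout in astrocytes and MAGL knockout in neurons. For age, sex, strain, Cre driver, deleted exons and animals per library, values were not given in the sources used here. Each genotype is 1 library, so no difference between genotypes has a replicate check and none was tested. Intervals given below are at 95% and cover counting error only.

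MAGL removes most of the endocannabinoid 2-arachidonoylglycerol in brain, mainly at presynaptic terminals and in astrocytes. ABHD6 hydrolyses the same lipid on the cytosolic side of membranes, largely on the postsynaptic side, and ABHD12 has its active site on the other face of the membrane and also degrades lysophosphatidylserines, an activity known from microglia. FAAH hydrolyses the other main endocannabinoid, anandamide, in the cell bodies and dendrites of principal neurons.

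In the mouse build GRCm38, per GENCODE M21, Abhd6 lies on the plus strand at chr14:8002902-8056763, Abhd12 on the minus strand at chr2:150832493-150904741 and Faah on the minus strand at chr4:115967145-116017926. RefSeq gives Faah a different span, chr4:115996668-116018837, and the annotation behind the counting was not given in the sources used here. Shown are the 250 bases before a transcript start in the RefSeq promoter table (GRCm38.p6) for Abhd6 and Faah, which part most between classes of neurons. Abhd6 has more than 1 such start in the table, and the window shown lies farthest upstream. The start used for Faah lies inside the RefSeq span of the gene and next to the gene's 5' end in GENCODE, so its window lies within the RefSeq span. Windows were searched on both strands for GGGCGG (the core of a GC box), CCAAT, TGACGTCA (a cAMP response element) and TATAAA. Capitals mark the matches, written 5' to 3' on the gene's strand, so a match on the other strand reads ATTGG or CCGCCC.
Abhd6: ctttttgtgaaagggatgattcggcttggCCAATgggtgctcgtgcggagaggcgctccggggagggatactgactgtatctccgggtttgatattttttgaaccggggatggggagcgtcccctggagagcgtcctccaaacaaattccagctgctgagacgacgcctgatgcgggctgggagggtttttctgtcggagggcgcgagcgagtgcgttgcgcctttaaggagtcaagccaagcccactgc
Faah: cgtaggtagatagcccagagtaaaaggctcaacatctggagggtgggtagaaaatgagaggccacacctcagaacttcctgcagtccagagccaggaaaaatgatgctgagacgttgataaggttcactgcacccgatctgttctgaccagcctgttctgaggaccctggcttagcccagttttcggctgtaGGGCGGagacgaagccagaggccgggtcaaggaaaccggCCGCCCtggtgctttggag
The Abhd6 window, chr14:8002638-8002887, held 1 CCAAT and 18 CpG, and the Faah window, chr4:116017925-116018174, held 2 GGGCGG and 9 CpG. CCAAT occurs in 33.9% and GGGCGG in 32.7% of the 32851 windows of this length, and 78.3% of windows had fewer CpG than that of Abhd6 against 59.7% for Faah. Neither window held TGACGTCA (1.55% of windows) or TATAAA (12.4%). Abhd12 has no window in the table.

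The libraries held 9369 barcodes (wild type), 31243 (total knockout), 10731 (astrocyte knockout) and 8945 (neuron knockout), with 81623644 to 193307038 UMIs. After filters and removal of called doublets (2.46% to 6.37% of nuclei in 3 libraries, 24.1% in the library labelled total knockout), 50980 nuclei remained, and a nucleus was placed in a class only where its score on fixed marker genes was clear, which left 20441 in no class. Class names therefore mean granule-like, astrocyte-like and so on. The library labelled total knockout had the lowest median depth (5456 UMIs against 7448 to 8904), and only 3 of its nuclei carried Xist without a Y-linked transcript against 19034 the other way, while each other library was a near even mix of female and male nuclei. In the library labelled total knockout Mgll itself was at 104 CPM (UMIs per 1000000 UMIs of the class) in dentate granule neurons against 122 in wild type, and in that labelled neuron knockout at 131. Against wild type the log2 ratio of Mgll in the library labelled total knockout was -0.24 in granule neurons, -0.52 in CA1, -0.46 in CA2/CA3 and -0.55 in subicular or cortical neurons and -0.83 in oligodendrocytes, with intervals below 0, but 0.00 in inhibitory neurons (117 and 116 CPM). In astrocytes of the library labelled astrocyte knockout it was -0.72 (-1.34 to -0.13), at 228 CPM against 374 CPM, but in astrocytes without any UMI of 8 excitatory neuron markers the intervals overlapped, at 430 CPM (255 to 680, on 24 nuclei) against 507 CPM (411 to 618). In astrocytes of the library labelled total knockout the ratio was -0.43 (-0.91 to 0.04). In the library labelled neuron knockout Mgll was not lower in granule neurons, at a log2 ratio of 0.10, or in inhibitory neurons, at 0.08. Mgll was also lower in a class outside the labelled deletion, subicular or cortical neurons of the library labelled astrocyte knockout, at -0.31 (-0.52 to -0.10). Mgll UMIs thus gave no clear check of the labels, and UMIs from outside the deleted exons would still be counted. Of the barcodes, 4.01% to 7.01% per library also occurred in another library.

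Abhd6 was spread over neurons unevenly. Its level in dentate granule neurons was 121, 116, 122 and 121 CPM in the wild-type, total, astrocyte and neuron knockout libraries, a mean of 120 ± 2.66 (SD, n = 4 libraries). CA2/CA3 neurons had a mean of 117 and CA1 neurons of 111, with ranges that overlapped those of granule neurons. In subicular or cortical neurons it was 53.3, 59.5, 57.3 and 50.4 CPM, below every granule value. The granule level was 1.95 to 2.41 times the subicular or cortical level across the 4 libraries. In the same contrast 12.2% of 13810 genes were at least 1.5-fold higher in granule neurons in each of the 4 libraries. Among excitatory clusters, found without use of these classes, the level varied further. Abhd6 had a mean over 4 libraries of 30.4 CPM (16.5 to 41.7) in a cluster led by Arhgap6, Aox3 and Col12a1 and of 39.6 CPM (37.2 to 42.4) in a cluster led by Kcnh8, Sntb1 and Skap1, against 120 CPM in the largest CA2/CA3 cluster. The other cluster named CA2/CA3 had 90.2 CPM (86.1 to 93.6), and the smaller of the clusters named CA1 had 84.7 CPM (81.3 to 94.1). The clusters led by Arhgap6 and by Kcnh8 carried the name subicular or cortical, and in them Abhd12 was not low, at 112 and 123 CPM. Another cluster of that name, led by Fn1, Nts and Gm6260, had Abhd6 at 90.4 CPM (85.9 to 98.9). An unnamed cluster led by Rai14, Cdh18 and Cobll1, which scored highest on subicular or cortical markers, had 75.1 CPM (70.4 to 79.4).

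**Figure D1:**
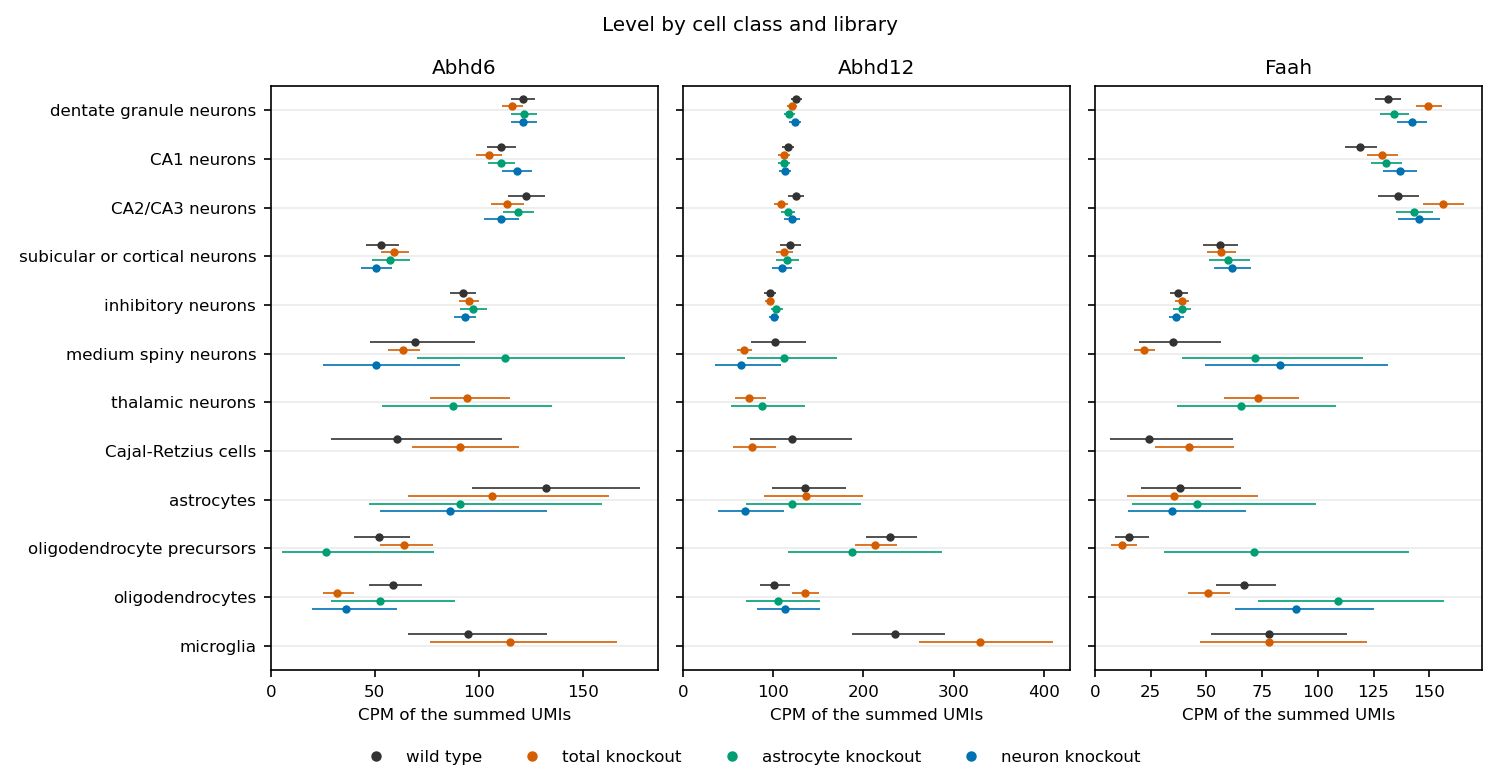
Level of Abhd6, Abhd12 and Faah (horizontal axis, CPM of the summed UMIs, linear, separate scale for each gene) by cell class in each of the 4 libraries with at least 20 nuclei of the class. Points are libraries and bars are exact 95% Poisson intervals; Faah is high in granule, CA1 and CA2/CA3 neurons and low in inhibitory neurons in all 4 libraries, and Abhd12 is highest in microglia and oligodendrocyte precursors.

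Inhibitory neurons held Abhd6 at 92.3, 95.1, 97.2 and 93.4 CPM in the same order of libraries, and this level concealed wide differences between their subtypes. Lamp5 neurons, which include neurogliaform cells, had 151, 148, 137 and 145 CPM. Pvalb neurons, fast-spiking cells that inhibit somata and axons, had 104, 107, 116 and 111 CPM. The Lamp5 values did not overlap those of Pvalb neurons, and neither overlapped the remaining subtypes. Sst neurons, which target dendrites, had 68.2, 71.4, 59.9 and 68.9 CPM. Cck neurons had a mean of 74.0 CPM (59.0 to 87.6) and Vip neurons of 66.4 CPM (53.3 to 85.1), and their ranges overlapped that of Sst neurons. Lamp5 neurons stood 2.08 to 2.29 times above Sst neurons, and 2.91% of 10677 genes were at least 2-fold higher in Lamp5 than in Sst neurons in each of the 4 libraries. Faah and Abhd12 did not follow this order. Faah means ran from 35.1 CPM in Pvalb to 43.0 CPM in Vip neurons with overlapping ranges, and Abhd12 means from 81.7 CPM in Vip to 110 CPM in Pvalb neurons.

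**Figure D2:**
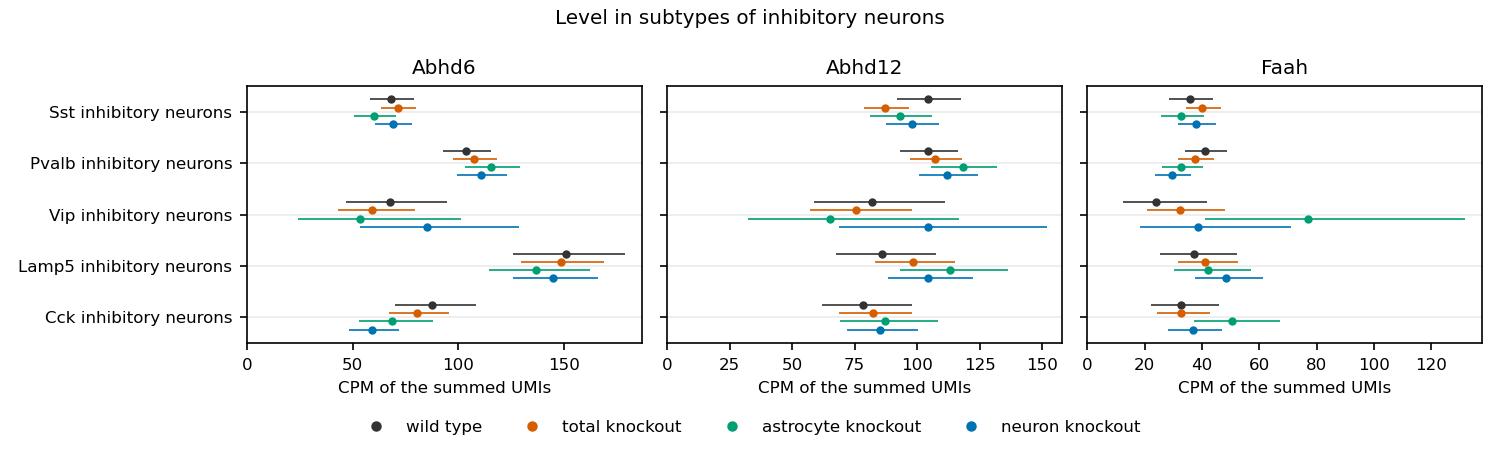
Level of the 3 genes (CPM of the summed UMIs, linear axes from 0) in 5 subtypes of inhibitory neurons, with 1 point per library and exact 95% Poisson intervals. Abhd6 lies between 137 and 151 CPM in Lamp5 neurons, between 104 and 116 CPM in Pvalb neurons and at or under 87.6 CPM in the others.

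Abhd12 was the most even of the 3 genes across neurons and the highest in 2 kinds of glia. In dentate granule neurons it was at 126, 121, 118 and 124 CPM, in CA1 neurons at 116, 112, 112 and 113 CPM and in inhibitory neurons at 96.4, 96.1, 104 and 101 CPM. The granule values all lay above the inhibitory values, by less than 1.5-fold. Thalamic neurons, a class with at least 20 nuclei in the total and astrocyte knockout libraries only, had the lowest neuronal mean, 80.3 CPM (73.2 and 87.5). Such means average different libraries for different classes: within the library labelled total knockout, medium spiny neurons were lower still, at 67.9 CPM (60.2 to 76.2).

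In oligodendrocyte precursors Abhd12 stood at 230, 213 and 188 CPM in the wild-type, total and astrocyte knockout libraries, the 3 with at least 20 such nuclei. Each value exceeded every value of granule neurons, 1.59 to 1.83 times the granule level of its own library. The interval of the ratio excluded 1 in the wild-type and total knockout libraries but not in that labelled astrocyte knockout, which had 26 such nuclei. In the same contrast 14.8% of 12903 genes were at least 1.5-fold higher in precursors in each of 3 libraries. Microglia, at 235 CPM in wild type (44 nuclei) and 329 CPM in the library labelled total knockout (78 nuclei), were 1.87 (1.48 to 2.33) and 2.72 (2.149 to 3.404) times above granule neurons, and 13.2% of 11796 genes reached 1.5-fold in each of these 2 libraries. The libraries labelled astrocyte and neuron knockout held 13 and 14 microglia and are not included in that count. Astrocytes had 136, 137, 121 and 68.8 CPM and mature oligodendrocytes 101, 135, 105 and 113 CPM, within or near the range of neurons.

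The microglial sums carried much neuronal RNA. UMIs of the 8 excitatory markers (Slc17a7, Camk2a and others) summed to 1157 CPM and 976 CPM in microglia of these 2 libraries, where granule neurons had 1301 to 1386 CPM over the 4 libraries. Of the 149 microglia 43.6% held at least 1 such UMI, and those nuclei were deeper, with medians of 12161 UMIs in wild type and 8790.5 in the library labelled total knockout against 1568 and 922.5 in the nuclei without. In nuclei without any such UMI, a selection added after seeing the data, Abhd12 was at 696 CPM (459 to 1012) in wild type, on 17 nuclei, and 897 CPM (666 to 1182) in the library labelled total knockout, on 56. The wild-type number is under the minimum of 20 nuclei used elsewhere. Over all 84 such microglia it was at 786 CPM (627 to 973). With each nucleus thinned to 1000 UMIs, 50.0% of 42 wild-type microglia (34.2% to 65.8%) held an Abhd12 UMI against 12.2% of 1753 granule nuclei (10.7% to 13.8%). Before thinning the shares were 77.3% and 59.9%, at medians of 7783.5 and 8023 UMIs.

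Among the classes Faah was highest in CA2/CA3, dentate granule and CA1 neurons. In CA2/CA3 neurons it was at 136, 156, 143 and 145 CPM in the wild-type, total, astrocyte and neuron knockout libraries. In dentate granule neurons it was at 131, 150, 134 and 142 CPM, a mean of 139 ± 8.21 (SD, n = 4 libraries), and in CA1 neurons at 119, 129, 131 and 137 CPM. Neighbours in this order overlapped. Inhibitory neurons lay far below, at 37.4, 38.8, 38.8 and 36.5 CPM. Granule neurons exceeded them 3.46 to 3.90 times within the 4 libraries, where 8.9% of 14972 genes were at least 2-fold higher in each library. Subicular or cortical neurons had 55.9, 56.6, 59.8 and 61.3 CPM, between these groups and overlapping neither. High Faah was not confined to clusters named for the high classes. An unnamed cluster led by Cdc14a, Wfs1 and Hmcn1, which scored highest on CA1 markers, had 116 CPM (87.7 to 131 over 4 libraries). Another unnamed cluster, led by C1qtnf7, Fign and Dcn, had 103 CPM (79.5 to 128). Medium spiny neurons of the library labelled total knockout, which held 785 of the 887, had 21.9 CPM (17.7 to 26.9). That class is not read in the libraries labelled astrocyte and neuron knockout, where its 25 and 26 nuclei carried more excitatory than inhibitory marker UMIs (1719 CPM and 1666 CPM against 5.12 CPM and 78.5 CPM), against its name.

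Shares of nuclei gave the same order for Faah at equal depth. At 1000 UMIs, 12.4%, 14.3%, 13.6% and 14.4% of granule nuclei held a Faah UMI against 3.79%, 3.10%, 4.04% and 3.57% of inhibitory nuclei. Unthinned, the shares were 63.0%, 49.7%, 57.8% and 63.0% against 29.4%, 19.8%, 24.1% and 28.4%. In oligodendrocyte precursors of the wild-type and total knockout libraries Faah was low, at 15.4 CPM and 12.1 CPM, and 1.01% of 296 wild-type nuclei (0.210% to 2.93%) and 0.464% of 647 nuclei in the library labelled total knockout (0.096% to 1.35%) held a Faah UMI at 1000 UMIs. In the 26 precursors of the library labelled astrocyte knockout Faah was at 71.5 CPM (30.9 to 141) on 8 UMIs, and 3.85% of them (0.097% to 19.6%) held one at that depth. The inhibitory share lay above that of precursors in the wild-type and total knockout libraries, with intervals that overlapped in wild type (2.67% to 5.21% in inhibitory nuclei) and did not in the library labelled total knockout (2.48% to 3.82%). Inhibitory neurons carried 249 to 299.5 CPM of the 8 excitatory markers, against 1301 to 1386 CPM in granule neurons and 117 CPM in precursors of these 2 libraries, and the part of this RNA in their Faah level was not tested.

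In astrocytes, microglia and Cajal-Retzius cells little or no Faah was counted in nuclei without excitatory marker UMIs. Astrocytes as gated had 38.3, 35.5, 45.5 and 34.4 CPM, close to inhibitory neurons, with summed excitatory markers of 355 to 842 CPM. In the 237 of 289 astrocytes with no excitatory marker UMI, 1 Faah UMI was counted in all, 2.10 CPM (0.053 to 11.7). Abhd6 and Abhd12 remained in those nuclei at 120 CPM (90.5 to 155) and 130 CPM (99.7 to 167). Microglia had 78.3 CPM and 78.2 CPM of Faah in the wild-type and total knockout libraries as gated. None of the 84 microglia without excitatory marker UMIs held any, where 3 UMIs would be 28.1 CPM. Cajal-Retzius cells, early-born Reln-positive neurons of the outer molecular layers, had 24.2 CPM and 41.9 CPM as gated. Their 100 nuclei without excitatory marker UMIs held none (3 UMIs would be about 18 CPM), and neither did the cluster that carries their name, in the 44 wild-type and 172 total knockout nuclei it held there. Of the 232 gated Cajal-Retzius nuclei 56.9% held such a UMI. The excitatory markers include the transporter gene Slc17a6. In these neurons, unlike in glia, such UMIs may be the cell's own RNA, so the selection does not mean the same there.

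Along the oligodendrocyte lineage the 3 genes differed. In the 929 precursors without excitatory marker UMIs, of 1008, Abhd12 was at 228 CPM (210 to 248), Abhd6 at 56.6 CPM (47.6 to 66.8) and Faah at 8.55 CPM (5.29 to 13.1). In the 1844 oligodendrocytes so selected, of 2007, Abhd12 was at 125 CPM (113 to 138), Abhd6 at 27.5 CPM (22.02 to 33.82) and Faah at 49.6 CPM (42.2 to 57.9). Of these oligodendrocytes 1393 came from the library labelled total knockout, so levels were also set side by side within libraries. Abhd12 was lower in the mature cells of both libraries with enough nuclei, at 103 CPM (82.9 to 126) against 243 CPM (214 to 275) in wild type and 137 CPM (121 to 154) against 217 CPM (193 to 243) in the library labelled total knockout. Abhd6 was lower in the library labelled total knockout, at 22.7 CPM (16.7 to 30.2) against 61.7 CPM (49.1 to 76.5), but in wild type the intervals overlapped, at 41.9 CPM (29.5 to 57.7) against 49.4 CPM (36.8 to 65.0). As gated, wild type ran the other way, with 58.9 CPM in oligodendrocytes and 52.3 CPM in precursors. Faah was at 9.69 CPM and 7.43 CPM in wild-type and total knockout precursors and at 44.1 CPM and 51.7 CPM in oligodendrocytes of the same libraries, higher in the mature cells of both. A cluster led by Bcas1, Tcf7l2 and Enpp6, genes known from newly formed oligodendrocytes, had Abhd12 at 165 CPM and 176 CPM in these 2 libraries. These values lay between those of the precursor and oligodendrocyte clusters (236 and 225 CPM, 101 and 128 CPM). They rest on 31 and 100 nuclei and carry no interval, so a level apart from that of precursors is not shown. The same nuclei gave 11 and 6 Faah UMIs, too few to place the cluster by Faah.

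**Figure D3:**
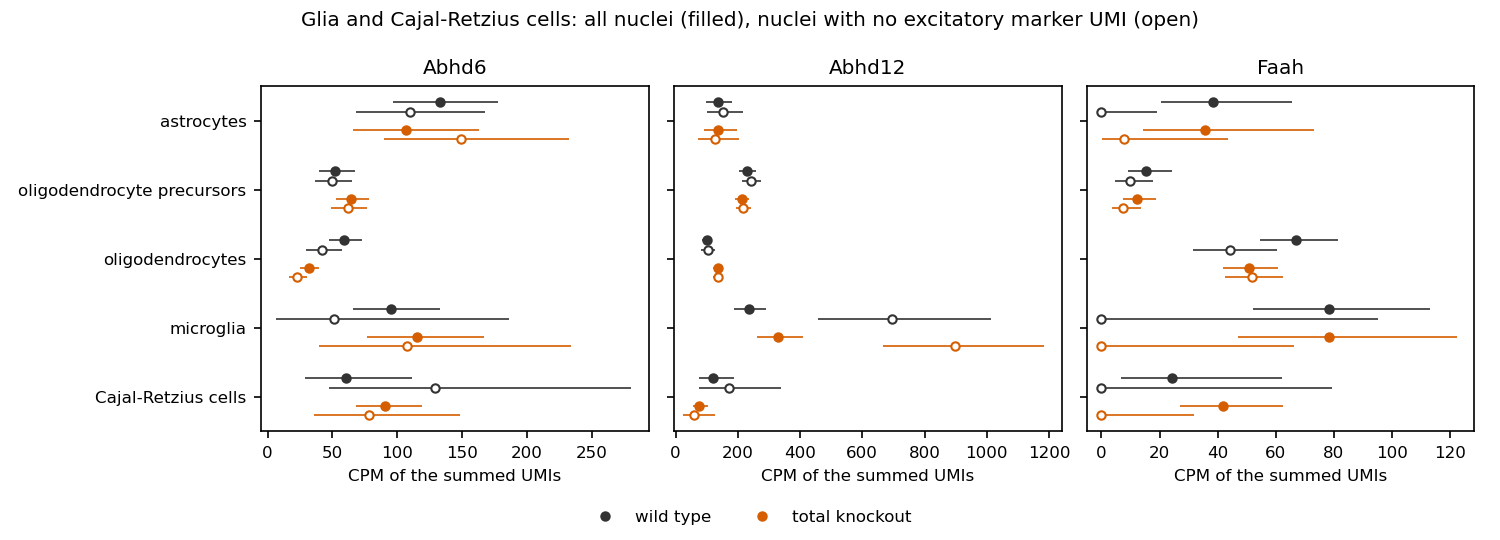
Level of the 3 genes (CPM of the summed UMIs, linear axes) in glia and Cajal-Retzius cells of the wild-type and total knockout libraries, in all gated nuclei (filled) and in nuclei with no UMI of 8 excitatory markers (open), with exact 95% Poisson intervals. Without those UMIs Faah is at or near 0 in astrocytes, microglia and Cajal-Retzius cells but stays at 44.1 CPM and 51.7 CPM in oligodendrocytes, and Abhd12 in microglia is at 696 CPM (17 nuclei) and 897 CPM (56 nuclei).

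Set against Mgll, the balance of the hydrolases differed between cell classes. For every 100 Mgll UMIs there were 171 Abhd6 UMIs (149 to 216 over the 4 libraries) in CA1 neurons, 97.9 (87.0 to 112) in granule neurons and 76.8 (70.6 to 81.5) in inhibitory neurons. Astrocytes, with much Mgll (228 to 374 CPM), had 34.8 (25.6 to 40.0). The CA1 values overlapped none of these 3, but thalamic neurons (153 and 222 in 2 libraries) and Cajal-Retzius cells (167 and 158) had ratios as high on fewer UMIs. Lamp5 neurons, which also held much Mgll (288 to 334 CPM), had 46.6, and Pvalb neurons had 119. Faah followed with 199 per 100 Mgll UMIs in CA1 neurons, 114 in granule neurons and 30.8 in inhibitory neurons. These ratios compare each gene with itself across classes, since the counts are not corrected for gene length, and they move with the genotypes through Mgll.

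Against wild type, no member reached a 1.5-fold difference in any knockout library in the 4 largest classes (granule, CA1, CA2/CA3 and inhibitory neurons). The 36 log2 ratios ran from -0.20 to 0.20. As background, 7.39%, 7.47% and 6.86% of 12937 genes passed 1.5-fold in either direction in granule neurons of the total, astrocyte and neuron knockout libraries. The shares were 8.93%, 5.15% and 7.17% of 12077 genes in CA1 neurons, 7.85%, 5.1% and 6.95% of 11381 in CA2/CA3 neurons and 8.0%, 7.47% and 7.45% of 13192 in inhibitory neurons. For Abhd6 all 12 intervals held 0, and for Abhd12 11 of 12 did. The exception for Abhd12 was CA2/CA3 neurons of the library labelled total knockout, at 108 CPM against 125 CPM in wild type, a log2 ratio of -0.20 (-0.35 to -0.06). An interval below 0 was found for 12.7%, 11.9% and 11% of genes in CA2/CA3 neurons (total, astrocyte and neuron knockout), for 21.8%, 20.3% and 17.3% in granule neurons, for 16.4%, 13.9% and 13.7% in CA1 neurons and for 19.8%, 17.9% and 17.4% in inhibitory neurons.

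Faah was higher than wild type by the counting interval in 5 of the 12 comparisons and lower in none. In granule neurons the log2 ratio was 0.19 (0.10 to 0.27) in the library labelled total knockout, 0.03 (-0.06 to 0.12) in that labelled astrocyte knockout and 0.11 (0.02 to 0.21) in that labelled neuron knockout. In CA2/CA3 neurons it was 0.20 (0.07 to 0.33) in the library labelled total knockout. In CA1 neurons it was 0.13 (0.02 to 0.25) in the library labelled astrocyte knockout and 0.20 (0.08 to 0.32) in that labelled neuron knockout. The wild-type library was the lowest of the 4 in each of these 3 classes, and the comparisons share it. Intervals above 0 were found for 11.7%, 11.9% and 12.4% of genes in granule neurons, for 12.4%, 10.3% and 11.3% in CA1 neurons, for 9.31%, 8.58% and 9.02% in CA2/CA3 neurons and for 10.3%, 9.06% and 11.7% in inhibitory neurons (total, astrocyte and neuron knockout). Of the genes tested in granule neurons, 41.5% lay at least as far from 0 as Faah did in the library labelled total knockout. In inhibitory neurons the ratios were 0.05, 0.05 and -0.04, with intervals that held 0. Within the 5 inhibitory subtypes, where at least 20 UMIs stood in both libraries, intervals lay below 0 in 1 of 12 comparisons for Faah, 1 of 14 for Abhd6 and 1 of 14 for Abhd12, and above 0 in none. Over all genes tested in these subtypes 9.81% of ratios had an interval below 0 and 6.74% above. For Faah this was Pvalb neurons of the library labelled neuron knockout, at 29.4 CPM against 41.1 CPM, a log2 ratio of -0.48 (-0.88 to -0.08). For Abhd6 it was Cck neurons of the same library, at 59.0 CPM against 87.6 CPM (-0.57, with an interval up to -0.14), and for Abhd12 Sst neurons of the library labelled total knockout, at 87.2 CPM against 104 CPM (-0.26, -0.49 to -0.02). Past 1.5-fold was Faah in Cck neurons of the library labelled astrocyte knockout, at 0.63 with an interval that held 0, where 12.4% of 6817 genes passed 1.5-fold. The library labelled total knockout also differed in depth, in the sex of its nuclei and in its mix of classes. Medium spiny neurons made up 3.35% of its nuclei against 0.25% to 0.57% in the others. Thalamic neurons made up 0.72% against 0.06% to 0.25%. The part of these differences in the result was not tested. With male nuclei alone the granule ratios of Faah were 0.21, 0.01 and 0.19.

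**Figure D4:**
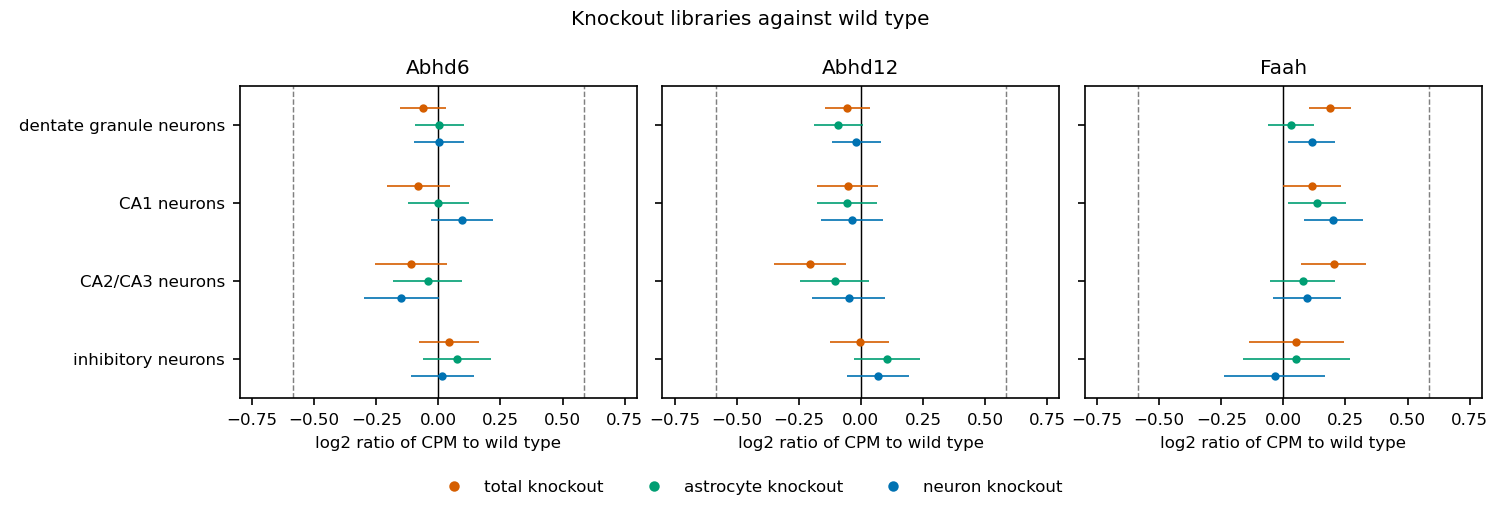
Log2 ratio of CPM to the wild-type library (horizontal axis) for the 3 genes in the 4 largest classes, with 1 point per knockout library and exact conditional 95% intervals; the solid line marks 0 and dashed lines mark 1.5-fold. All 36 points lie between -0.20 and 0.20, and the 5 intervals wholly above 0 belong to Faah.

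Granule neurons consisted almost wholly of 2 clusters. In the cluster led by Trpc6, Gm6999 and C1ql2 (cluster 12) Faah was at 123, 159, 143 and 143 CPM in the wild-type, total, astrocyte and neuron knockout libraries, and wild type lay below the others. Relative to wild type the log2 ratios came to 0.38 (0.20 to 0.56), 0.23 (0.03 to 0.43) and 0.22 (0.01 to 0.43). In the cluster led by Glis3, Prox1 and Dsp (cluster 13) Faah was at 133, 145, 131 and 142 CPM, with ratios of 0.12 (0.02 to 0.22), -0.03 (-0.14 to 0.08) and 0.09 (-0.02 to 0.20). Cluster 12 and cluster 13 had overlapping intervals in each knockout library, and their difference was not tested. Intervals above 0 were found for 8.21%, 8.55% and 8.21% of 9839 genes in cluster 12 and for 9.95%, 11% and 11.1% of 12199 genes in cluster 13 (total, astrocyte and neuron knockout). Cluster 12 held 24.8% of the granule nuclei of wild type and 41.7%, 32.2% and 30.4% of those of the knockout libraries. It was the shallower, with median UMIs per nucleus of 6047.5 against 8552 in wild type.

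**Figure D5:**
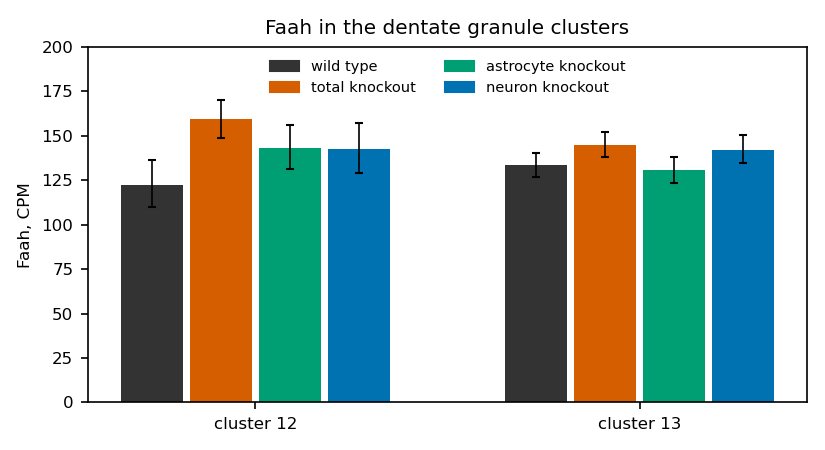
Faah (vertical axis, CPM of the summed UMIs, from 0) in the 2 clusters that make up dentate granule neurons, with bars for the 4 libraries and exact 95% Poisson intervals. Wild type is at 123 CPM against 143 to 159 CPM in cluster 12, while in cluster 13 the 4 libraries lie between 131 and 145 CPM.

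Among the smaller classes, oligodendrocytes held ratios past 1.5-fold, in a class where 16.8%, 33.1% and 24.8% of 6479 genes passed 1.5-fold in the total, astrocyte and neuron knockout libraries. Abhd6 was at 58.9 CPM in wild type and at 31.7, 52.7 and 36.1 CPM in the total, astrocyte and neuron knockout libraries, and the log2 ratio of the library labelled total knockout was -0.89 (-1.36 to -0.43). In nuclei without excitatory marker UMIs the 2 levels were 41.9 CPM and 22.7 CPM. Abhd12 was higher there, at 135 CPM against 101 CPM, a log2 ratio of 0.42 (0.14 to 0.71), and at 137 CPM against 103 CPM without those UMIs. Faah was at 66.9 CPM in wild type and 50.6 CPM in the library labelled total knockout as gated, but at 44.1 CPM and 51.7 CPM without those UMIs. In the libraries labelled astrocyte and neuron knockout it was at 109 CPM as gated, a log2 ratio of 0.71 (0.06 to 1.31), and at 90.2 CPM, a ratio of 0.43 with an interval that held 0. Their nuclei without those UMIs gave 71.1 CPM on 6 Faah UMIs and 41.6 CPM on 7. The summed excitatory markers of this class were 364 CPM in wild type and 115, 572 and 472 CPM in the total, astrocyte and neuron knockout libraries, and their part in the result was not tested. The Abhd6 and Faah ratios also turned when called doublets were kept, to 0.15 and 0.062. Abhd12 was lower in medium spiny neurons of the library labelled total knockout, at 67.9 CPM against 102 CPM on 51 wild-type nuclei, a log2 ratio of -0.59 (-1.04 to -0.11), in a contrast where 24% of 6440 genes passed 1.5-fold. Ratios past 1.5-fold whose intervals held 0 were Abhd6 in astrocytes of the library labelled neuron knockout (-0.62, where 22.7% of 1901 genes passed) and Abhd12 in Cajal-Retzius cells of the library labelled total knockout (-0.66, 20.9% of 1544 genes). Abhd6 in medium spiny neurons of the library labelled astrocyte knockout also passed (0.69, interval holding 0), in a class not read there. In microglia the Abhd12 log2 ratio in the library labelled total knockout was 0.49 (0.03 to 0.95) as gated, where 13.5% of 1604 genes had an interval above 0, and it turned to -0.061 when called doublets were kept. Without excitatory marker UMIs the 2 levels, 696 CPM in wild type and 897 CPM, had overlapping intervals. The microglial markers themselves summed to 4082 CPM in wild type and 6074 CPM in the library labelled total knockout, and their part in the ratio was not tested. In excitatory neurons of no finer type Faah was at 78.5 CPM (69.5 to 88.3) in wild type and 89.1 CPM (79.5 to 99.5) in the library labelled total knockout. It was at 112 CPM (98.4 to 126) and 104 CPM (91.9 to 118) in those labelled astrocyte and neuron knockout. These last 2 intervals lay above that of wild type, and no share over all genes was counted for this class. The share of those nuclei that lay in CA1 or CA2/CA3 clusters was 11.5%, 18%, 29.0% and 16.8%, and its part in the result was not tested. Over all classes Faah was higher by the interval of its ratio in 8 of 21 comparisons and lower in 1. No share over all genes was counted for these comparisons together, so the count has no background. The lower one was oligodendrocytes of the library labelled total knockout, at a log2 ratio of -0.40 as gated.

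Female and male nuclei of the same library could be compared in 3 libraries. Over 12 comparisons per gene (4 classes in each), the log2 ratio of female to male nuclei ran from -0.27 to 0.09 for Abhd6, from -0.21 to 0.10 for Abhd12 and from -0.17 to 0.11 for Faah. By the counting interval female nuclei were lower in 1 of 12 comparisons for Abhd6, 2 of 12 for Abhd12 and 1 of 12 for Faah, and higher in none. Over all genes tested in the same 12 comparisons together, 5.36% of ratios had an interval below 0 and 6.09% above. For Abhd6 this was granule neurons of the library labelled neuron knockout, at 111 CPM in female and 134 CPM in male nuclei, a log2 ratio of -0.27 (-0.44 to -0.10).

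Of the 18 other endocannabinoid genes considered, among them the synthetic enzymes Dagla, Daglb and Napepld and the receptor Cnr1, 11 had enough UMIs in granule neurons. None was 1.5-fold higher in any knockout library, and 1, 0 and 1 were lower, against 7.39%, 7.47% and 6.86% of all genes past 1.5-fold in either direction. Fabp5, which encodes a carrier of fatty acids and anandamide, was the one that was lower, at 13.3 CPM in wild type, 7.68 CPM in the library labelled total knockout and 5.25 CPM in that labelled neuron knockout. Its log2 ratios were -0.79 (-1.12 to -0.47) and -1.34 (-1.77 to -0.93). The median ratio of the list was -0.12, 0.05 and -0.07 in the total, astrocyte and neuron knockout libraries. Dagla, which makes 2-arachidonoylglycerol, was at 142 CPM in granule and 39.7 CPM in inhibitory neurons. Napepld, which makes anandamide precursors, was at 90.3 CPM in granule neurons but at 8.09 CPM in CA1 neurons, where Faah was at 129 CPM. Cnr1 went the other way, with 5.32 CPM in granule and 283 CPM in inhibitory neurons, where it is also a marker of the Cck subtype.

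Of 15 measured genes among 19 others of the Abhd family, Abhd11 was lower in granule neurons of the library labelled total knockout (-0.74, on 30 and 44 UMIs). In the library labelled astrocyte knockout Abhd3 (0.77) and Abhd14a (0.63) were higher and Abhd17a (-0.60) was lower, and in that labelled neuron knockout Abhd3 was higher (0.60). These are 1, 3 and 1 of 15 genes past 1.5-fold, against 7.39%, 7.47% and 6.86% of all genes tested. The list medians were 0.09, 0.13 and 0.14.

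Across the 15 classes used, each with at least 50 nuclei, the genes most like each member in log2(CPM + 1) were found among 12063 genes outside the fixed marker lists. Mossy cells (231 nuclei) and immature neurons (313 nuclei) were not among these classes. For Faah these were Grin2a, a subunit of NMDA receptors (r = 0.93), Kcnj6, a potassium channel subunit (0.93), Galnt17 (0.93), Camk2b (0.91) and Gm10649 (0.90). For Abhd12 they were Nsmaf (0.88), Vsir (0.87), Gramd1a (0.86), Gm5086 (0.85) and Fbxw4 (0.85), all 5 highest in microglia. For Abhd6 they were Dalrd3 (0.88), Gm11099 (0.82), Pfkl (0.80), Lamb1 (0.78) and Sdcbp (0.77). The members were little like each other, with r of -0.17 between Abhd6 and Abhd12, 0.12 between Abhd6 and Faah and 0.26 between Abhd12 and Faah. These are descriptions over class means that share libraries and stray RNA between classes.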

How the data were processed

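The RNA side of 4 single-nucleus libraries of mouse hippocampus was used, 1 per genotype. The values deposited by the authors are UMI counts, whole and not normalized, for each gene in each barcode. Per the submitters' processing notes Cell Ranger ARC 2.0.0 and the mm10 build were used. Use of introns and of strand in counting was not given in the sources used here. Per the labels' protocols nuclei were lysed from tissue, filtered and cleaned on iodixanol without a sort.

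Nuclei needed 500 detected genes and at most 5% mitochondrial UMIs, and Scrublet in scanpy 1.11.5, run on each library alone, marked the doublets that were removed. A nucleus joined a class where its mean standardised marker score reached 0.5, exceeded the next class by 0.25 and rested on 3 detected markers (2 for inhibitory subtypes). These thresholds were set after seeing the data, and 171 of the 178 listed markers were found. Mossy, immature and ependymal classes were left out, so no ranking of classes covers them. Leiden clusters (39, leidenalg 0.10.2) served as an alternative. UMIs were summed per class and library and given as CPM, with exact Poisson intervals, and ratios with exact conditional binomial intervals. Classes needed 20 nuclei in a library, ratios 20 UMIs on each side, and genes counted as background 100 UMIs in the class. The ratio code was checked on simulated counts. Median depth per barcode was 5456 to 8904 UMIs. TMM scaling used edgeR 4.0.16.

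The 3 genes, the gene lists and the marker lists were chosen with earlier results of these data known. Named beside the members were list genes past 1.5-fold in granule neurons, and the 5 genes most correlated with each member. Dagla, Napepld and Cnr1 and the named clusters were chosen after their values were seen. Alternatives were kept doublets, male nuclei alone, marker-named clusters, thinning, equal weight per nucleus, TMM, other minimum UMIs, a 2-fold threshold and leaving out the library labelled total knockout. Nuclei without excitatory marker UMIs and each granule cluster alone were added after seeing the data.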

Additional observations from a re-analysis of the deposited data

How the results depend on the processing

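No paired analysis was possible because each genotype is 1 library and no test was made. In granule neurons the log2 ratios of the 3 genes kept their value within counting error with doublets kept, male nuclei alone, marker-named clusters, TMM scaling and equal weight per nucleus. Thinned to 1000 UMIs, Abhd6 was at 0.19, 0.16 and 0.21 in the total, astrocyte and neuron knockout libraries, Abhd12 at -0.16 (total) and -0.23 (neuron) and Faah at 0.14 (astrocyte). These thinned ratios rest on 171 to 546 UMIs per gene and library, against 1457 to 2573 before thinning. They carry no interval, so a change with depth is not shown. In cluster 12 alone Faah was at 0.38, 0.23 and 0.22. In oligodendrocytes of the library labelled total knockout the direction turned for Abhd6 (0.15) and Faah (0.062) with doublets kept and for Faah (0.17) with equal weight per nucleus, and in microglia for Abhd12 (-0.061) with doublets kept. The cause was not tested. The Abhd6 level in granule neurons was 124 CPM in male nuclei and 123 CPM thinned, and in oligodendrocytes 28.1 CPM with equal weight per nucleus and 25.0 CPM without excitatory marker UMIs (mean of 4 libraries). The last value includes the libraries labelled astrocyte and neuron knockout, which gave only 2 Abhd6 UMIs each in those nuclei. Among classes with enough nuclei in at least 2 libraries, Abhd6 was highest in granule neurons and lowest in oligodendrocytes as gated. When thinned it was highest in astrocytes (141 CPM) and lowest in oligodendrocyte precursors (29.7 CPM). These thinned values rest on 4 to 16 UMIs per library in astrocytes and 0 to 38 in precursors, so a changed class order is not shown. With doublets kept Abhd6 was highest in choroid plexus epithelium (125 CPM) and lowest in subicular or cortical neurons (55.1 CPM). Precursors were also lowest without the library labelled total knockout (39.5 CPM). Abhd12 was at 40.8 CPM in thalamic neurons when thinned, on 7 and 1 UMIs in the total and astrocyte knockout libraries. In microglia Abhd12 was at 710 CPM thinned and 567 CPM with equal weight (means of the wild-type and total knockout libraries). Without excitatory marker UMIs it was at 897 CPM in the library labelled total knockout alone, since wild type had 17 such nuclei. Without the library labelled total knockout, or with male nuclei alone, too few microglia remained and Abhd12 was highest in oligodendrocyte precursors (209 CPM and 210 CPM). Among classes with enough nuclei in at least 2 libraries, the lowest for Faah was oligodendrocyte precursors as gated (33.0 CPM, and 13.8 CPM without the library labelled astrocyte knockout, added after seeing the data) but Cajal-Retzius cells when thinned (8.82 CPM), with equal weight (9.81 CPM) and in marker-named clusters (0 CPM), choroid plexus epithelium with doublets kept (39.9 CPM) and inhibitory neurons without the library labelled total knockout (37.6 CPM). The thinned Cajal-Retzius value rests on 0 and 3 UMIs in the wild-type and total knockout libraries. Genes past the threshold in granule neurons numbered 2452, 2444 and 2335 with at least 20 UMIs, 4955, 4928 and 4911 with no minimum and 223, 146 and 117 at 2-fold, against 956, 967 and 887. Small glial classes limit what can be read, since 3 UMIs in the 84 clean microglia are already 28.1 CPM.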

Other observations

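In the 20441 nuclei that joined no class, Abhd6 had a mean of 90.9 CPM over the 4 libraries, Abhd12 of 102 CPM and Faah was at 81.1 CPM in wild type, 83.9 CPM in the library labelled total knockout, 90.7 CPM in the library labelled astrocyte knockout and 91.9 CPM in that labelled neuron knockout. The choroid plexus epithelium, which secretes cerebrospinal fluid, was sampled in wild type alone (98 of 119 nuclei) and had Abhd6 at 125 CPM (96.2 to 159), Abhd12 at 70.2 CPM and Faah at 11.7 CPM (4.30 to 25.5). A cluster led by Ano1, Prdm16 and Zic4 was left unnamed by the marker rule. It scored highest on thalamic markers, and its mean score on inhibitory markers was 0.84. It had Abhd6 at 131 CPM over the 4 libraries (124 to 144) and Faah at 31.1 CPM (26.1 to 36.6).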
